A study of Mus musculus with 2 samples.

Results

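Peak-dense windows of the newborn mouse stomach are 10 kb stretches of an autosome in which DNase-seq called 6 or more peaks in each of 2 replicates. They were chosen by these peak counts alone, on a fixed grid of build mm10, with each peak placed by its centre. Of 246285 autosomal windows, 1142 met the rule (0.464%), and adjacent ones were joined into 1108 dense regions. DNase I cuts DNA where it is accessible, and a peak marks a narrow site of frequent cutting. The tissue was stomach of B6NCrl mice at postnatal day 0. Replicates 1 and 2, labelled as biological replicates, form the only group, and each is a single library. Both carry the same donor identifier, the labels do not say whether separate animals or pools were used, and sex was not collected. Whole tissue holds epithelium, muscle, mesenchyme, nerve, vessel and blood cells, so a site open in a few cells and a site less open in many cannot be told apart. With 1 group there was no comparison between conditions, and everything below is a description of these libraries.

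Accessible sites lie at promoters, where transcription begins, and at enhancers, which act on genes from a distance. Genes for developmental regulators and for rapidly induced factors often have many enhancers close together, and such clusters have been called super-enhancers or stretch enhancers. A hotspot is a wider stretch of raised cutting around 1 or more peaks. Peaks, their signal and the hotspots of a replicate come from the same reads, so none of them supports another independently.

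The sequences below show what the accessible sites of such a region look like at the base level. A shared region here is the union of peaks of both replicates that overlap by at least 1 bp. Zfp503 encodes a zinc-finger transcriptional repressor, and its region had the second highest number of shared regions. The 6 lines that follow are from the 15 shared regions in its first window, and none touches an annotated exon. All are on the plus strand of mm10, with matches to the motifs named further on in capitals.
Zfp503 chr14:21981576-21981725: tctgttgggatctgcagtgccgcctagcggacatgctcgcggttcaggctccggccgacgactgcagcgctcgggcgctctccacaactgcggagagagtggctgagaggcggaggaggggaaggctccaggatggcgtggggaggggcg
Zfp503 chr14:21982456-21982685: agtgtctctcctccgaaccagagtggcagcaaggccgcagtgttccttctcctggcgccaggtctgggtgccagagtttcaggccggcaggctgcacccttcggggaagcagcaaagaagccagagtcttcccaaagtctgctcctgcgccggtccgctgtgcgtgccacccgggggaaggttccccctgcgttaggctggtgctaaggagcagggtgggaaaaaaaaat
Zfp503 chr14:21982736-21982885: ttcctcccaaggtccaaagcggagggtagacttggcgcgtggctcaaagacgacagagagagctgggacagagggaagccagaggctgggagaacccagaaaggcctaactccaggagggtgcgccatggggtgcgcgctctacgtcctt
Zfp503 chr14:21983196-21983365: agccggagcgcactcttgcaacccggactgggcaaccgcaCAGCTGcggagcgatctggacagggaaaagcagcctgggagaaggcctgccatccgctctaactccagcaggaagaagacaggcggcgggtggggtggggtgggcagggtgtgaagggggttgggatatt
Zfp503 chr14:21986756-21986945: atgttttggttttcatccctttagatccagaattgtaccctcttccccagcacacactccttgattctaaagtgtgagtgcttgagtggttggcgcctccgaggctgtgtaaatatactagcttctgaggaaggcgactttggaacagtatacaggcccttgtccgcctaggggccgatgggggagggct
Zfp503 chr14:21988376-21988525: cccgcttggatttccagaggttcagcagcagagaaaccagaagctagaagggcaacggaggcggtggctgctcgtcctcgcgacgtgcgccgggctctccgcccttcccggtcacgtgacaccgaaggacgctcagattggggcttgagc
An E-box match was the only one among these 6 sequences. The strongest shared region outside exons is given next for each of 6 other regions with many shared regions, to show how they differ.
Mecom chr3:30508376-30508585: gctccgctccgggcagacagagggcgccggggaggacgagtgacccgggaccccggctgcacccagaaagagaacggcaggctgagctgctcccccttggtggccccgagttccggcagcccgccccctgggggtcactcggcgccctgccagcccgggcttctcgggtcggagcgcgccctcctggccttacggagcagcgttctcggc
Tnrc18 chr5:142817816-142817965: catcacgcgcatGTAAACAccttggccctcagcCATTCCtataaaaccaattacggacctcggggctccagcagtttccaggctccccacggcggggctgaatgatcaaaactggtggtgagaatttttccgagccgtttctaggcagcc
Foxa1 chr12:57536116-57536265: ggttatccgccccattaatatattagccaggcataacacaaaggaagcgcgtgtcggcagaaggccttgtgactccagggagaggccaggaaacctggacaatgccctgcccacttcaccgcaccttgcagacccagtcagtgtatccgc
Dusp4 chr8:34807136-34807285: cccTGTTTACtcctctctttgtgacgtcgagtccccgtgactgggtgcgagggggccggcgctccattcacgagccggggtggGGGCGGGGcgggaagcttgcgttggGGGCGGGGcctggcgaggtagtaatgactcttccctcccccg
Irf2bpl chr12:86894596-86894745: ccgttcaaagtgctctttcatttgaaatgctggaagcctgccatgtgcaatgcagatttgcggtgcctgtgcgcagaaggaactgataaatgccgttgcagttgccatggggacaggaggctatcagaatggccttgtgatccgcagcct
Plec chr15:76196276-76196425: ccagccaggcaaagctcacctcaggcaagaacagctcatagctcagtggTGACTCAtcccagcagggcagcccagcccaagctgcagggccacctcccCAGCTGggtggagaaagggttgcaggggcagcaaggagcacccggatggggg
Matches were present in 3 of these 6. The Dusp4 sequence held a FOXA match and a pair of KLF/SP matches, the Tnrc18 sequence FOXA and TEAD matches, and the Plec sequence AP-1 and E-box matches. The Foxa1, Irf2bpl and Mecom sequences held none of the strings searched.

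Dense windows formed the upper end of a steep distribution. The lower of the 2 peak counts was 5 in 1384 windows, just outside the rule, 6 in 622 windows, just inside it, and 10 or more in 73 windows. The highest lower count was 20. Replicate 1 alone had 1854 windows with 6 or more peaks and replicate 2 had 2822. Thus 712 windows passed in replicate 1 and not in replicate 2, and 1680 passed in replicate 2 and not in replicate 1. Replicate 2 also had the longer list, with 149217 autosomal peaks against 136048. Dense windows held 8371 of the peaks of replicate 1 (6.15%) and 8992 of those of replicate 2 (6.03%). Some peaks of a list overlap the next peak of that list (2.9 and 2.5% of the autosomal peaks), and these were counted as listed. Across the 62418 windows with a peak in both replicates the counts had a Spearman rho of 0.719, and across the 1142 dense windows alone it was 0.383. These points come from the same 2 libraries. The rule leaves out all counts under 6, which narrows the range in dense windows. The 2 values therefore cannot be compared as measures of agreement.

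**Figure D1:**
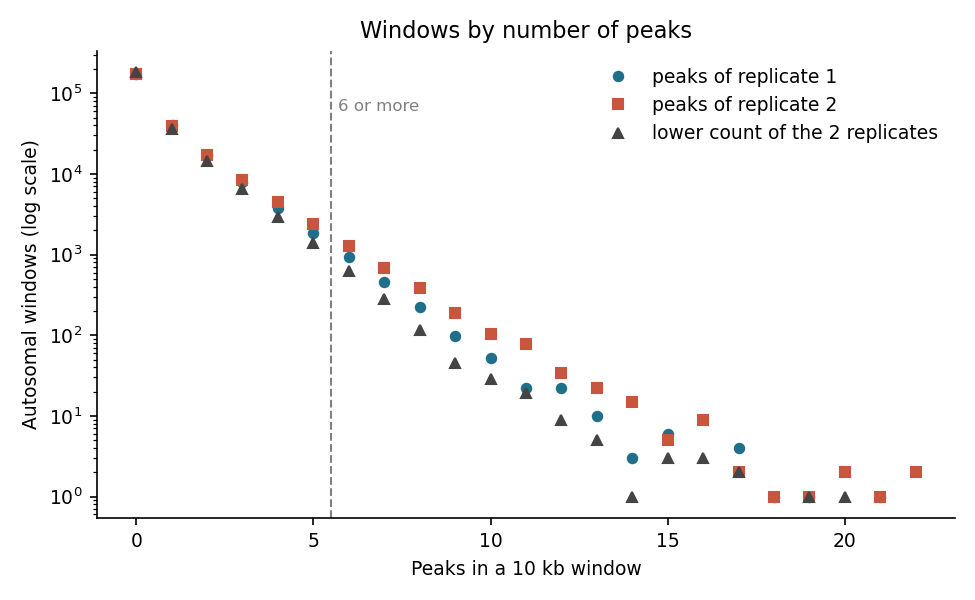
Number of autosomal 10 kb windows (log scale) against the number of peaks in the window, for replicate 1 (circles), replicate 2 (squares) and the lower of both counts (triangles). Windows to the right of the dashed line, with a lower count of 6 or more, are the 1142 dense windows, and window numbers drop at each further peak up to 10 peaks.

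Most dense regions were a single window. The rule itself asks for many peaks in both replicates, so the counts below describe the members and do not support their agreement. Of the 1108 regions, 1074 had this form and 34 were a pair of windows, with none longer. The median region had 7 peaks in replicate 1 (6 to 30) and 7 in replicate 2 (6 to 33). It had 6 shared regions, with a range of 2 to 24. Peak counts were equal in 326 regions, higher in replicate 2 in 513 and higher in replicate 1 in 269, and they differed by at most 2 in 926. In dense windows 86.6% of the peaks of replicate 1 overlapped a peak of replicate 2, against 77.8% of all its autosomal peaks, a difference that the choice of windows favours. For replicate 2 the shares were 79.9 and 70.8%. The centres of neighbouring shared regions within a dense window lay a median of 640 bp apart, against 1040 bp in other windows. The rule itself favours this shorter spacing.

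A few regions were far from equal. The Cited2 region, around a transcriptional co-regulator gene, had 10 peaks in replicate 1 and 20 in replicate 2, with 9 shared regions. Hotspots covered 40.8% of it in replicate 1 and 75.1% in replicate 2. The Msl2 region, around a subunit gene of a histone acetyltransferase complex, had 6 and 14 peaks, and the Tns2 region, around a focal adhesion protein gene, had 8 and 16. The opposite order was seen at Jund and Iqcn (21 and 13 peaks), Tmem63a (13 and 6) and Szrd1 (13 and 6). In each of these 6 regions the replicate with more peaks also had the lower median signal percentile and the larger hotspot cover.

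Hotspots covered far more of the dense regions than of the genome. Peaks and hotspots come from the same reads, so the choice of windows favours this contrast and the rise of cover with peak count. The median cover was 22.9% in replicate 1 (4.99 to 80.6%) and 24.8% in replicate 2 (4.93 to 94.5%). Over all autosomes hotspots covered 1.51 and 1.69%. Dense windows, at 0.464% of the windows, held 7.45 and 7.37% of the hotspot bases. Median cover was 16.9 and 18.4% in windows with a lower count of 5, 20.4 and 22.3% at 6, 25.4 and 27.9% at 7 to 9, and 38.1 and 41.8% at 10 or more. Across the 1108 regions the cover in one replicate followed that in the other with a Spearman rho of 0.60.

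A few loci stood at the top of this range. The window with the most cover, at chr19:5840001-5850000, holds Neat1, the noncoding RNA that builds nuclear paraspeckles, and part of the body of Frmd8. It had 17 and 19 peaks and a cover of 80.6% in replicate 1 and 94.5% in replicate 2. The window of Ugt1a1, the enzyme that conjugates bilirubin, had 17 and 18 peaks and a cover of 79.3 and 73.1% (chr1:88210001-88220000). The Fgf9 window had a cover of 69.0 and 68.3%. At the lower end stood a window near Polr3k, 45.6 kb from that gene's start, with 4.99 and 4.93%. Its 6 and 6 peaks all fell in 3 shared regions.

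**Figure D2:**
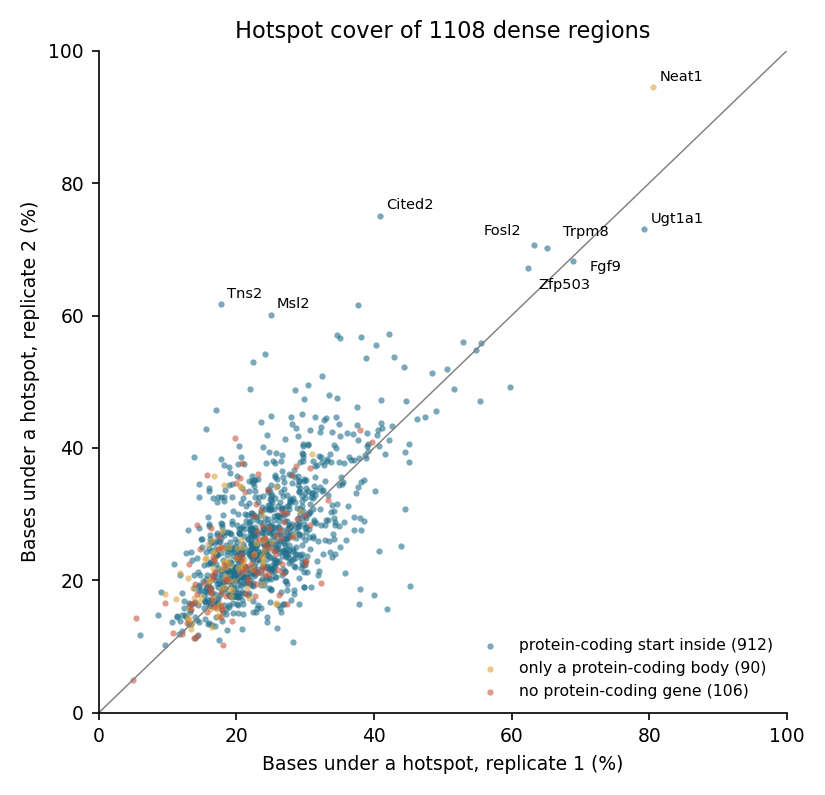
Percentage of bases under a hotspot in replicate 1 (horizontal axis) and replicate 2 (vertical axis), 1 point for each of the 1108 dense regions, coloured by the protein-coding genes inside, with the line of equality. The window with Neat1 (80.6 and 94.5%) and that of Ugt1a1 (79.3 and 73.1%) lie at the upper right, and Cited2, Tns2 and Msl2 lie far above the line.

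The peaks in dense windows were stronger than the middle of their list, yet the most crowded windows were not the strongest. The deposited signal has no stated unit, so it is given as a percentile among the autosomal peaks of the same list. The median peak in a dense window stood at percentile 66.9 in replicate 1 and 65.8 in replicate 2. The highest 10% of the list supplied 18 and 18.7% of these peaks and the lowest 10% supplied 1.8 and 2.5%. Windows with a lower count of 6 had median percentiles of 67.4 and 67, close to those at 5 (66.9 and 67). Windows at 10 or more had 59.9 and 58.7. The number of shared regions in a region followed its hotspot cover (Spearman rho 0.478) more than its signal percentile (0.182), over the same 1108 regions and libraries. Hotspots are raised around the same peaks that form shared regions, so a link between their number and cover is favoured from the outset.

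The strongest dense regions were not the largest. A window inside the noncoding gene Gm31718, 116 kb from the start of Tomm20, had 6 peaks in each replicate with median percentiles of 96.5 and 95.8. The window with the starts of Slbp, which binds histone mRNA, Tmem129 and Tacc3 had 6 and 7 peaks at percentiles of 97.2 and 94.8. In the opposite direction, 10 regions had a median percentile under 25 in both replicates, while 809 were over 50 in both. The lowest pair lay in Adamts18, a gene for a secreted metalloprotease. The joined region at chr8:113800001-113820000 had 21 and 23 peaks with raw signals of 7 to 21 and 10 to 19, and median percentiles of 1.58 and 0.31. The window at chr8:113770001-113780000 had 17 and 16 peaks at percentiles of 1.58 and 0.43. Their shared regions numbered 10 and 5, so many peaks there had no partner in the other replicate. A window near Zfp991 had 9 and 14 peaks at percentiles of 6.65 and 11.2.

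Promoters were the main setting of dense regions. A protein-coding transcript start lay in 912 of the 1108 regions (82.3%, 95% Wilson interval 80.0 to 84.4%, counting error only). Another 90 regions overlapped a gene body without a start, and 106 held no protein-coding gene, of which 50 overlapped a gene of another type. More than 1 protein-coding start lay in 172 regions. Among windows with a peak in both replicates, 927 of the 20148 with a protein-coding start were dense (4.60%), against 215 of the 42270 without (0.509%). Windows just outside the rule were similar. A protein-coding start lay in 75.1% of those with a lower count of 5, 78.3% at 6 and 81.2% of all dense windows. Of the 20807 autosomal protein-coding genes, 1104 had a start in a dense region (5.31%), and 1288 had a body that overlapped one (6.19%). These genes were longer, with a median of 26.2 kb for those with a start inside against 17.6 kb for all.

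The accessible sites extended beyond the promoters themselves. Of the 6978 shared regions in dense windows, 54.9% had their centre within 1 kb of a transcript start (Wilson interval 53.8 to 56.1%), against 29.7% of the 96288 others (29.5 to 30.0%). These intervals give counting error only. They treat shared regions as independent, although neighbours lie in the same region and come from the same libraries. Introns held 24.3% against 36.8%, exons 4.10% against 3.63%, and intergenic sequence 16.6% against 29.8%. The share at promoters depended on the distance allowed. It was 26.8% within 250 bp, against 17.9% of the others, and 74.3% within 2.5 kb, against 39.3%. In 836 regions shared regions lay both within and beyond 1 kb of a start, in 127 all lay within, and in 145 none did. Away from promoters, intergenic shared regions of dense windows had median percentiles of 71.6 and 72.6, against 53.7 and 58.0 elsewhere, where the peaks that chose the windows enter both values.

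The base composition of dense windows, which the rule did not use, also stood apart. Their median GC content was 48.4%, against 44.8% in windows with peaks in both replicates that were not dense and 41.4% in all autosomal windows. CpG sites numbered 21.4 per kb against 10.9 and 7.4, and repeats marked in the reference made up 21% against 24.3 and 28.6%. Windows with a lower count of 5 were intermediate, at 47.4% GC and 18.2 CpG per kb. Without a protein-coding start, the median was 13.9 CpG per kb in 215 dense windows and 9.7 in the windows with peaks that were not dense. Whether base composition affects how many peaks were called was not tested.

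The 12 regions with the most shared regions each held a protein-coding start, and 11 of them were joined pairs of windows. First was the region of Trpm8, the cold-sensing ion channel, at chr1:88290001-88310000. It had 30 and 33 peaks, 24 shared regions and a hotspot cover of 65.1 and 70.2%. Its peaks were weak for a dense region, at median percentiles of 37.7 and 36.3, and 17 of its shared regions were intronic. Its CpG density, 7.65 per kb, was far below the dense median of 21.4. The Ugt1a1 window lies at lower coordinates on the same chromosome.

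Several of the largest regions surrounded genes of transcription factors. The Zfp503 region had 27 and 28 peaks and 22 shared regions, of which 10 lay in exons, with a cover of 62.3 and 67.2%. Mecom, a zinc-finger factor with a role in stem and progenitor cells, had 23 and 27 peaks and 21 shared regions, 15 of them intronic. Foxa1, a forkhead pioneer factor of endoderm, had 26 and 32 peaks and 20 shared regions, 10 of them intergenic. Its hotspot cover differed between replicates, at 37.7 and 61.6%. Klf3, a Krüppel-like repressor, had 18 and 23 peaks and Tgif1, a homeobox co-repressor of TGF-beta signalling, 20 and 19, with 16 shared regions each. Irf2bpl, a transcriptional regulator, had 19 and 24 peaks and 17 shared regions. Tnrc18, a chromatin-associated protein, had 26 and 22 peaks and 21 shared regions.

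The remaining largest regions belonged to signalling and structural genes. Fgf9, a growth factor of epithelial and mesenchymal exchange in the gut, was the most crowded single window. It had 21 and 20 peaks within 10 kb and 17 shared regions, 16 of them within 1 kb of an annotated start. Dusp4, a phosphatase that turns off MAP kinases, had 25 and 23 peaks and 20 shared regions, 14 of them intronic. Plec, which encodes the cytoskeletal linker plectin, had 19 and 23 peaks and 17 shared regions, of which 13 lay near its starts. The peaks of the whole Plec region were strong, with median percentiles of 84.8 and 83.1. The region with the starts of Tlcd1, Nek8 and Traf4 had 17 peaks in each replicate, 16 shared regions and percentiles of 84.1 and 83.8.

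**Figure D3:**
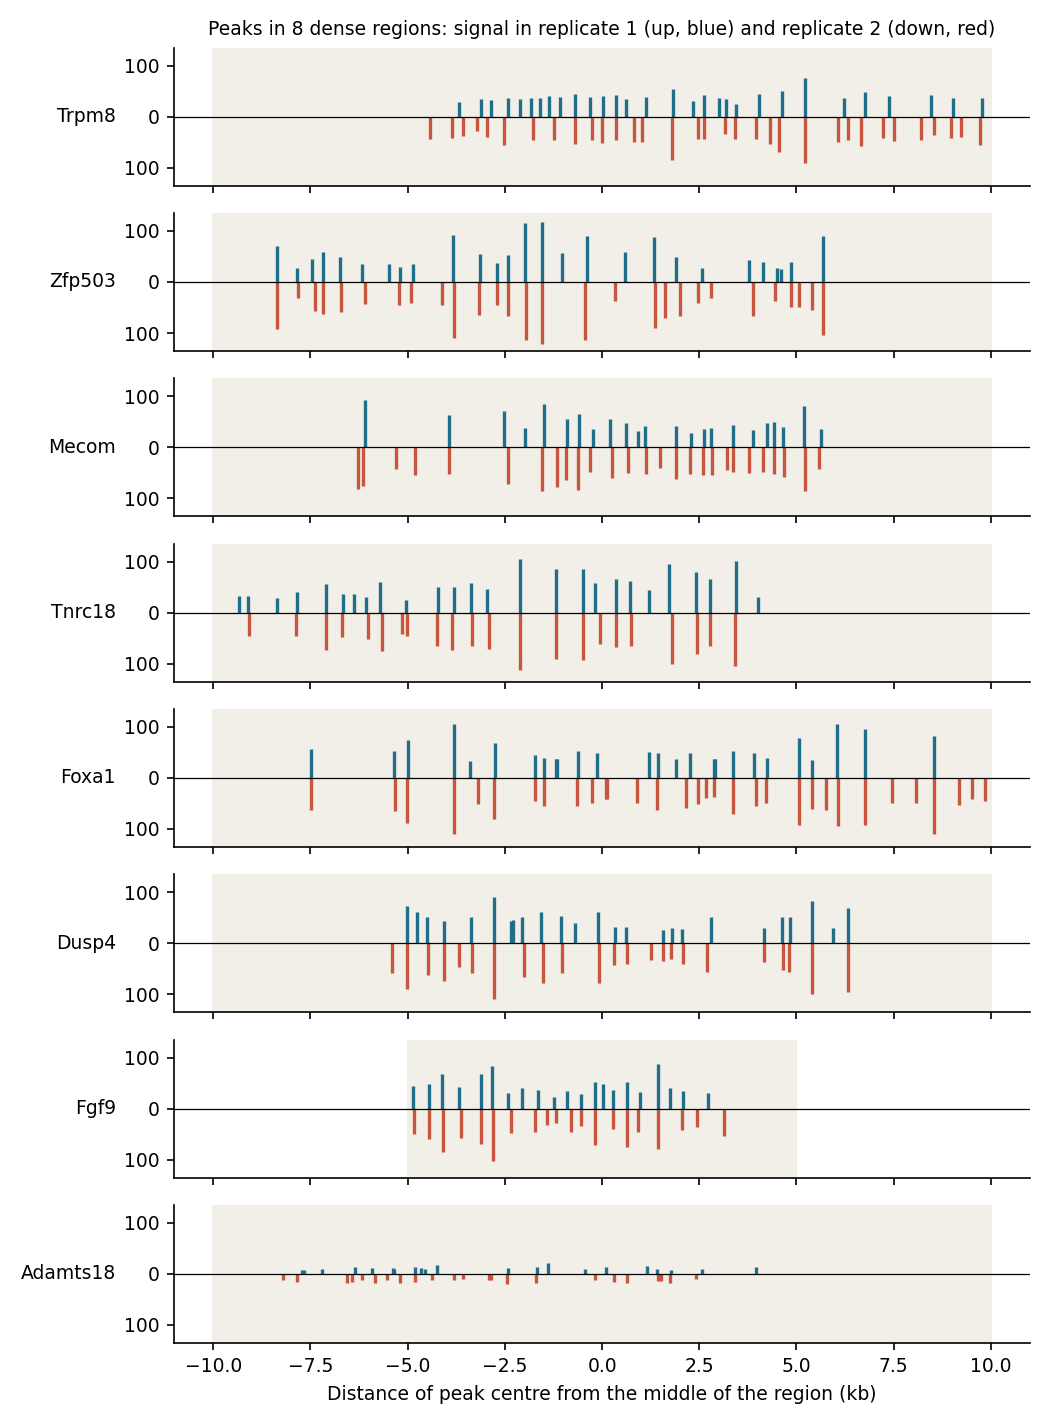
Position (kb from the middle of the region) and deposited signal (no stated unit) of each peak in 8 dense regions, replicate 1 upward and replicate 2 downward, with the extent of the region shaded. Most peaks of both replicates line up in the 7 upper regions, while those of Adamts18 are low, with signals of 7 to 21 and 10 to 19, and often have no counterpart.

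Regions without a protein-coding start were fewer, with signal percentiles similar to those with one and a somewhat lower hotspot cover. The 90 with only a protein-coding body had a cover of 18.4 and 22.1% and percentiles of 65.6 and 67. The 106 regions without a protein-coding gene had a median of 6 shared regions, a cover of 21.3 and 22.4% and percentiles of 65.8 and 67, against 23.9 and 25.6% and 66.6 and 65.8 for those with a start. They lay a median of 30.4 kb from the nearest protein-coding start, and 39 dense regions in all lay over 50 kb away. The farthest was a window 273 kb from the start of Rbbp8, with 7 and 7 peaks, 6 shared regions and percentiles of 59.9 and 68.1. A window 253 kb from Nr2f2, an orphan nuclear receptor gene, had 6 and 6 peaks. The joined region nearest to Gm21863, 265 kb away, had 20 and 20 peaks at low percentiles of 11.5 and 22.6. Long runs of unknown bases in the assembly (1 kb or more) lay within 50 kb of 12 dense windows (1.05%), against 0.578% of the windows with peaks that were not dense. They include windows near Sfi1, near Ccr1 and at the first assembled bases of chromosome 18. The part of such gaps in the peak counts was not tested.

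Gene groups were then read against the share of all protein-coding genes with a start in a dense region, 5.31%. The lists were chosen with earlier results of these data known, and their members are not independent. Among transcription factors of the gastric epithelium, 5 of 26 had a start in a dense region. Foxa1 is described above. Klf4, a factor of epithelial differentiation, had 9 and 10 peaks and 8 shared regions. Grhl2, which maintains epithelial junctions, had 8 and 6 peaks, and Gata6, an endodermal zinc-finger factor, had 6 and 7. Sox21, a factor of foregut epithelium, had 7 peaks in replicate 1 and 14 in replicate 2. The dense window of Foxq1, a forkhead gene of the stomach surface lineage, overlapped its annotated body but not a start, with 6 and 6 peaks. Outside the dense regions, the start of Gata4 lay in a window with 1 and 1 peak, that of Sox2 in a window with none, and that of Foxa2 in a window with 9 and 3.

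Signals of the developing foregut had 9 of 32 starts in dense regions. They include ligands, receptors and targets of several pathways. Ligands were Fgf9, Bmp2 (7 and 10 peaks), Wnt5a (11 and 11 peaks, 10 shared regions) and the Notch ligand Jag1 (9 and 9 peaks). The Hedgehog receptor Ptch1 had 7 and 7 peaks, all matched in 7 shared regions, at percentiles of 87.0 and 83.8. The retinoic acid receptor Rarg had 7 and 7. Feedback and target genes were Spry2, an inhibitor of FGF signalling (12 and 8 peaks), Axin2, a Wnt target (8 and 6), and Hes1, a Notch target. The joined Hes1 region had 17 and 15 peaks and 14 shared regions. The starts of Shh (2 and 3 peaks), Bmp4 (2 and 3) and Fgf10 (1 and 1), well-known ligands of the same tissue, lay in windows far below the rule.

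Of 29 general epithelial genes 7 had a start in a dense region (24.1%) and 9 a body. Without replicate 2, 11 had a start inside. The share of all protein-coding genes with a body in a dense region then rose from 6.19 to 9.81%. It was 14.3% without replicate 1. Esrp1 and Esrp2, regulators of epithelial splicing, had 6 and 6 peaks and 8 and 9 peaks. The adhesion genes Epcam (8 and 9), Dsp (7 and 8), Jup (6 and 7) and Tjp3 (6 and 8) and the protease inhibitor gene Spint2 (7 and 8) also qualified. Other junction genes of the list, such as Cldn4 (8 and 3 peaks), Cldn18 (4 and 4) and Ocln (2 and 3), were outside. The dense window of Cdh1, the gene of E-cadherin, had 7 and 7 peaks and contained none of its starts. Of 29 gastric gland products 1 qualified, a share near the background, or 4 without replicate 1 and 3 without replicate 2. It was Tff1, the trefoil peptide of surface mucous cells, with 11 and 10 peaks and 9 shared regions. Windows with the starts of the proton pump genes Atp4a (5 and 4 peaks) and Atp4b (2 and 2) and of Gkn1 (2 and 3) did not.

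Of 24 visceral smooth muscle genes 4 had a start in a dense region (16.7%). These were the transcription factor gene Srf (6 and 10 peaks), Tpm1, a tropomyosin (6 and 6), the adhesion gene Tns1 (6 and 6) and Pdlim7 (7 and 8), and a dense window also overlapped the body of Vcl, the gene of the adhesion protein vinculin. A threshold of 7 peaks left 1 of the 4 and a threshold of 8 left 0. Of 30 genes of gut mesenchyme and fibroblasts 1 qualified, a share near the background, or 3 without replicate 2. It was Vim, the intermediate filament vimentin, with 7 and 6 peaks. With both replicates required, no start of the lists for forestomach squamous epithelium (24 genes), endothelium (22), immune cells (20), enteric neurons and glia (18), erythroid cells (11) or enteroendocrine cells (15) lay in a dense region. The same was true of the lists for hepatocytes (11), pancreas (11), intestinal epithelium (15), heart and skeletal muscle (12), brain (13) and germ cells (12), tissues of which the sample should hold little. Beside a background of 5.31%, a count of 0 in lists this short is near what all genes show. Of these lists, those for endothelium and immune cells were also counted with a replicate left out. The counts were 1 and 1 without replicate 1, and 0 and 1 without replicate 2. In these settings the share of all protein-coding genes with a body in a dense region was 14.3 and 9.81%, against 6.19% with both.

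Rapidly induced genes had the highest share. Of 31 immediate early and AP-1 genes, whose transcription responds quickly to stimuli, 16 had a start in a dense region (51.6%). Their regions had 6 to 21 peaks in replicate 1 and 7 to 16 in replicate 2. Those of Jun, Junb and Jund were joined pairs of windows, and the others were single windows, so their counts cover unlike lengths. The AP-1 subunit genes were Jun (14 and 15 peaks, 12 shared regions), Junb (14 and 14, 13 shared regions), Jund (21 and 13) and Fosl2 (15 and 16). Hotspots covered 63.3 and 70.6% of the Fosl2 window. They covered 17.1 and 16.4% of the Junb region, below the medians of all dense regions (22.9 and 24.8%). Atf3, a stress-induced partner of AP-1, had 6 and 7 peaks. Myc, a growth regulator, had 10 and 11 peaks and a cover of 50.6 and 51.9%. Genes that dampen a response were Zfp36 (9 and 12) and Zfp36l1 (9 and 12), which destabilise mRNAs, and Dusp1, a MAP kinase phosphatase (8 and 7). The growth-arrest genes Btg2 (6 and 10) and Gadd45g (11 and 11), the clock gene Per1 (9 and 12), Csrnp1 (9 and 8) and Ier2, Ier5 and Ier5l completed the group. The peaks of Ier2 were among the strongest, at percentiles of 94.6 and 95.4. Fos (6 and 3 peaks), Egr1 (5 and 4) and Fosb (5 and 4) were not dense.

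Other broadly expressed groups were also well represented. Of 22 TGF-beta targets and adhesion genes 7 had a start in a dense region, or 12 without replicate 1. They include Id3 and Id4, inhibitors of helix-loop-helix factors, and the integrin genes Itgb1 and Itgb4. The Id3 window had 9 peaks in each replicate and 9 shared regions, at percentiles of 90.9 and 93.3. Of 23 housekeeping genes 7 qualified, among them Actb (7 and 6 peaks) and Gapdh (9 and 6), a share of 30.4%, similar to that of the foregut signals (28.1%). Without replicate 1, 13 housekeeping genes qualified. The same setting gave the 12 TGF-beta and adhesion genes above. It raised the share of all protein-coding genes with a body in a dense region from 6.19 to 14.3%. Of 7 nuclear RNA genes Neat1 and the snoRNA host Gas5 (10 and 6 peaks) qualified. Gene families were formed by symbol after the data were seen, and are set beside the 5.31% of all protein-coding genes. Starts in dense regions numbered 7 of 20 for Fos, Jun and Atf factors (35%) and 6 of 20 for clock genes (30%). They numbered 4 of 13 for Id, Hes and Hey factors (30.8%) and 12 of 78 for cytosolic ribosomal proteins (15.4%). These families repeat loci of the lists above. Fosl2, Jun, Junb, Jund, Atf3 and Per1 were counted in the immediate early list. Id3, Id4, Hes1 and Rpl13a were counted in the TGF-beta, foregut or housekeeping lists. Zfp genes (24 of 385, 6.23%) and solute carriers (21 of 358, 5.87%) were near that background. None of 39 Hox genes or 49 keratins had one, counts near that background in families this small. None of 1127 olfactory receptors had one either.

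**Figure D4:**
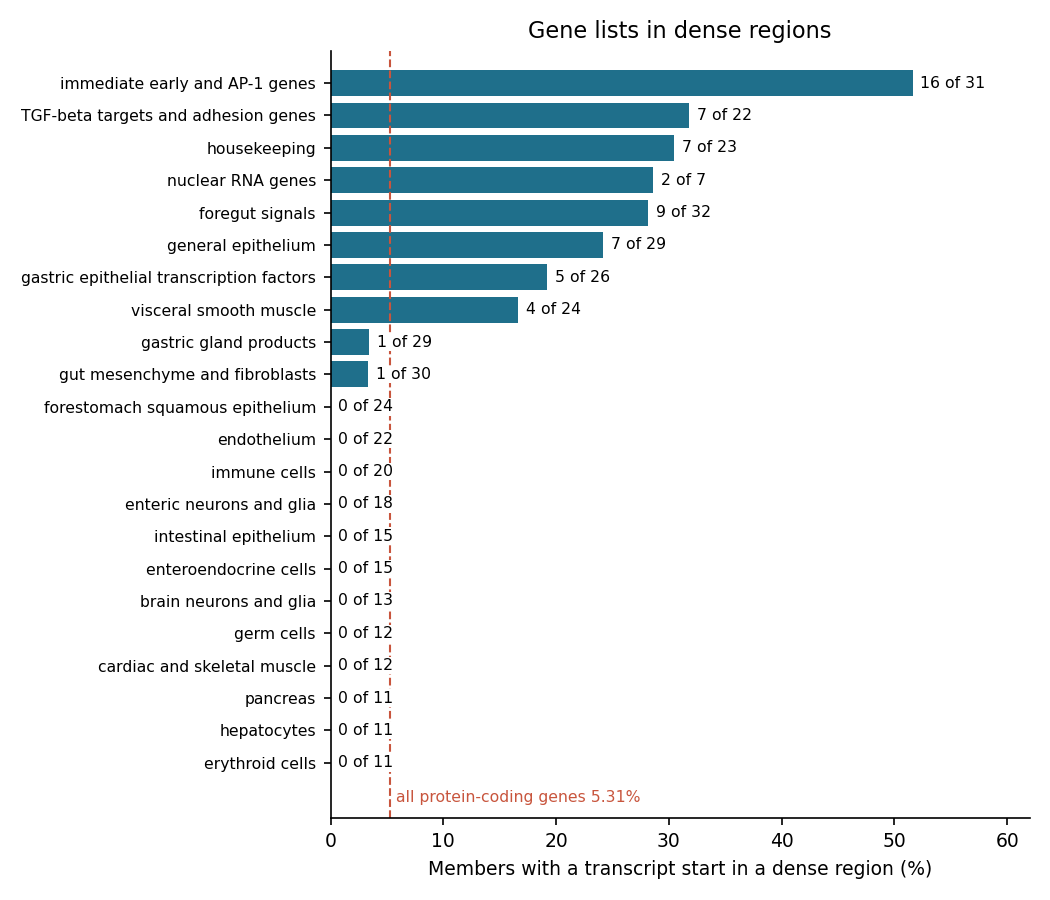
Percentage of the autosomal members of each gene list with a transcript start in a dense region, with counts beside the bars and the percentage over all autosomal protein-coding genes (5.31%) as a dashed line. The immediate early and AP-1 list has the highest share, 16 of 31, and 12 lists have none.

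Dense windows were unevenly spread over chromosomes. Chromosome 11 held 128 of them, 10.5 per 1000 windows, followed by chromosome 19 with 7.65 and chromosome 17 with 7.16. Chromosome 14 had the lowest rate, 3.04. Per 1000 peaks, averaged over the replicates, chromosome 11 was also highest, at 12.3. Chromosome 10 was then lowest, at 6.31, and chromosome 14 had 6.75. The median distance from a region to the next dense region was 320 kb, and 280 regions had another within 100 kb. The most crowded megabase, chr17:35000001-36000000, lies in the major histocompatibility region and had 10 dense windows. Its windows held starts of widely expressed genes such as Ddx39b, an RNA helicase, Csnk2b, a kinase subunit, and Tubb5, a tubulin. Next was chr11:69000001-70000000 with 9 windows, which include those of Per1 and of Kdm6b, a histone demethylase gene. Chromosome 7 had 7 dense windows between 45 and 46 Mb, around Rpl13a, the clock output gene Dbp and Trpm4.

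Motifs were sought on both strands in the central 150 bp of each shared region, for 18 consensus strings. They were TGANTCA for AP-1, TGTTTAC for forkhead factors (FOXA), AGATAA for the GATA factors, CAAAGTCCA for HNF4, GTTAATNAT for HNF1, AACCNGGTT for Grainyhead-like factors (GRHL), GGGCGGGG for KLF/SP, CCGGAAG for ETS factors, TGACGTCA for CREB, CCAATCA for NF-Y, CGCATGCG for NRF1, CATTCC for TEAD, ACAATGG for SOX, TTGGCA for nuclear factor I, TGTGGTT for RUNX and CAGCTG for the E-box, with CTCF and the CArG box searched by their standard consensus. Matches of different strings may share bases. A match is a string and not a bound site.

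Shared regions of dense windows carried fewer CTCF strings, which mark insulators and loop anchors. A CTCF match was present in 1.22% of them, against 4.15% of the other autosomal shared regions. The lower share held beyond 1 kb from a start, at 1.81% of 3145 against 5.27% of 67651, and within 1 kb, at 0.730% of 3833 against 1.49% of 28637. KLF/SP strings were more frequent, at 10.2% against 6.16%. Within 1 kb of a start the shares were near each other, 14.9 and 15.3%, and beyond it they were 4.42 and 2.30%. ETS strings were less frequent near starts, at 4.83% against 7.54%, and more frequent beyond, at 2.29% against 1.34%. AP-1 strings were found in 12.3% of the distal shared regions of dense windows and 15.1% of the others, and FOXA strings in 3.75 and 5.26%. CArG strings differed little beyond 1 kb, at 0.731 and 0.732%. The median GC content of distal shared regions was 51.3% in dense windows and 49.3% elsewhere, and near starts it was 60.7 and 59.3%. Its part in the differences was not tested.

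**Figure D5:**
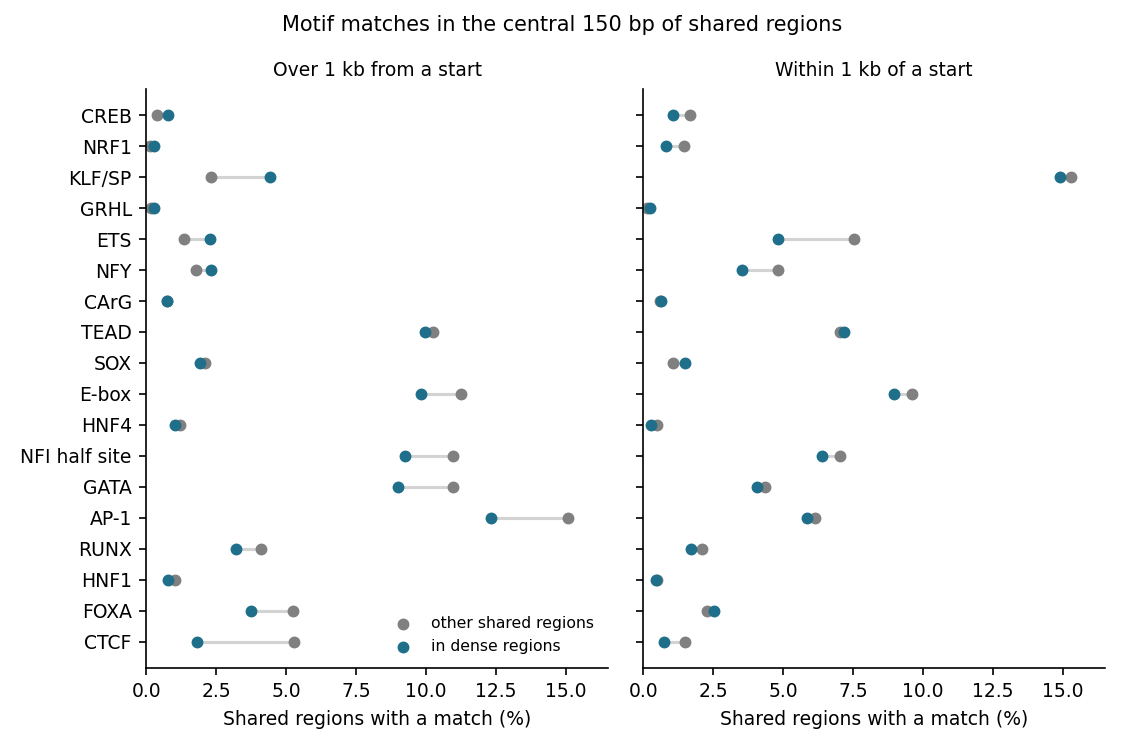
Percentage of shared regions with at least 1 match in their central 150 bp for 18 motifs, in dense regions (blue) and among other autosomal shared regions (grey), beyond 1 kb from a transcript start (left) and within 1 kb (right). CTCF lies lower in dense regions in both panels, and KLF/SP lies higher beyond 1 kb (4.42 against 2.30%) and not within it.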

How the data were processed

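DNase-seq of newborn mouse stomach gave peak and hotspot lists on mm10 for each of 2 replicates. The peak signal, as deposited, is a whole number with no stated unit or scaling. The hotspot lists hold the -log10 of a q value and a display score by the deposited layout, and neither entered a result. Aligner, peak caller, thresholds and read numbers were not given in the sources used here, so the depth is unknown and limits which weak sites were called.

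Peaks were assigned to 10 kb windows by their centre, windows with 6 or more peaks in each replicate were kept, and adjacent windows were joined. Peaks of both replicates overlapping by 1 bp formed shared regions, placed by their centre as promoter (within 1 kb of a GENCODE M21 transcript start), exon, intron or intergenic. Hotspot cover is the percentage of bases under a hotspot. Sequence came from the RefSeq copy of mm10. Python 3.11.15, numpy 2.4.6, pandas 2.3.3, scipy 1.17.1 and pysam 0.24.0 were used, and the counting functions were tested on simulated data.

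Named regions were the 12 with the most shared regions, the 3 at either end of hotspot cover and of signal percentile, the 3 longest, the 3 farthest from a protein-coding start, and those with a gene of the 22 lists. A region takes the name of at most 4 genes with a start inside, then of an overlapping body, then of the nearest start. Printed sequences are at most 300 bp and exclude exons. A shared region and a gene that these rules take are not reported here. Members and lists were chosen with earlier results of these data known. No test was made, since peak counts chose the members. The thresholds, grid, peak position, list length and promoter distance were varied, and each replicate was left out.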

Additional observations from a re-analysis of the deposited data

Results flagged for a closer look

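The rule covers autosomes, and windows of the sex chromosomes with 6 or more peaks in both replicates were set aside. There were 8 of them, 7 on X and 1 on Y. The densest by its lower count had 22 peaks in replicate 1 and 22 in replicate 2. It lies in Mid1, a ubiquitin ligase gene at the edge of the pseudoautosomal region, and the window before it in Mid1 had 25 and 19. Another on X held Asmt (9 and 10 peaks), a gene of melatonin synthesis. The rest were those of Hcfc1 (8 and 8), Flna (6 and 9), Hmgn5 (8 and 6) and Stag2 (6 and 8) on X and a window without a gene on Y (6 and 10). These lower counts of 22 and 19 in Mid1 compare with a highest lower count of 20 on the autosomes. No control was analysed here, and no sex was recorded.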

How the results depend on the processing

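The number of dense regions depended on the threshold and on requiring both replicates. Against 1142 dense windows, 1108 regions and 6.19% of protein-coding genes, a threshold of 5 peaks gave 2526, 2417 and 13.2%, of 7 peaks 520, 505 and 2.93%, and of 8 peaks 235, 227 and 1.35%. The stronger 50% of each list alone gave 392, 375 and 2.14%. Leaving out a replicate gave 1854 to 2822 windows, 1778 to 2676 regions and 9.81 to 14.3% of genes. The grid moved by 5 kb (1176 windows), peak starts in place of centres (1152), lists of equal length (1118), counting shared regions (789) and, added after seeing the data, overlapping peaks of a list counted once (1051) stayed within 1.5 times. Of the 1108 regions, 616 overlapped a dense region of the moved grid and 1025 remained with overlapping peaks counted once. Which loci pass therefore depends on where the grid starts.

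The median hotspot cover, averaged over replicates, was 24.2%. It was 21 to 21.9% with a replicate left out, 20.5, 27.8 and 32.3% at thresholds of 5, 7 and 8, and 26.6% with the stronger 50% of peaks. The promoter share of 54.9% became 54.3% at a threshold of 5, 54.2% at 8, 26.8% within 250 bp, 74.3% within 2.5 kb and 50.5% with protein-coding starts only. The 16 immediate early and AP-1 genes became 18, 13 and 8 at thresholds of 5, 7 and 8, 14 on the moved grid and 12 with the stronger 50% of peaks. The 7 housekeeping genes became 13, 2 and 0 at thresholds of 5, 7 and 8. The 4 smooth muscle genes became 5, 1 and 0. Leaving out replicate 1 moved housekeeping genes to 13 and TGF-beta and adhesion genes from 7 to 12. Leaving out replicate 2 moved general epithelial genes from 7 to 11 and mesenchymal genes from 1 to 3. The immediate early and AP-1 count became 22 without replicate 1 and 17 without replicate 2. The share of all protein-coding genes with a body in a dense region rose as well, from 6.19 to 14.3 and 9.81%. The causes of these shifts were not tested beyond the settings themselves. No paired analysis was possible because there is 1 group.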
